A study of Bos taurus with 2 samples.

Results

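PAX7 cells were the cultured bovine satellite cells in which at least 1 molecule of PAX7 mRNA was counted, that is, they were chosen by their measured PAX7 counts. There were 176 of them among 19096 cells, 94 of the 9939 cells in replicate 1 and 82 of the 9157 cells in replicate 2. They were compared with 3520 cells without a PAX7 molecule, 20 for each PAX7 cell, taken from the same library and from the same of 10 equal bins of total counts. The comparison asks what else distinguished the transcriptome of a cell in which PAX7 was caught.

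PAX7 is a paired box transcription factor and the classical marker of satellite cells, the stem cells of postnatal skeletal muscle. In a quiescent or self-renewing satellite cell PAX7 is present, and in an activated cell it is joined by MYF5 and MYOD1, which commit the cell to the muscle lineage. As the cell leaves the cell cycle to differentiate, PAX7 is lost, MYOG is switched on, and genes of the contractile apparatus follow.

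The cells came from the longissimus muscle of 1 male two-week-old Holstein calf, and were released by pronase digestion and grown for a week in DMEM with 10% fetal bovine serum. No cells were sorted and no treatment, deletion or transgene was used, so all cells share genotype and culture. The 2 libraries, replicates 1 and 2, were made on the 10x Genomics platform from the same cells. The p-values therefore measure the spread between sums of 2 libraries, and not that between animals. That spread holds library preparation and also which cells were caught. Each PAX7 sum was over 94 or 82 cells, and each matched sum over 1880 or 1640. The test used 1 estimate of spread per gene for both kinds of sum. Each captured mRNA carried a unique molecular identifier (UMI), and molecules were counted. The 2 libraries held 145631299 and 137818568 UMIs, with medians of 14626 and 15206 UMIs per cell, and a level here is a number of UMIs per 10000 UMIs.

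PAX7 (ENSBTAG00000014967) was close to the limit of detection. Each of the 176 PAX7 cells held exactly 1 PAX7 UMI, so the cells just inside the threshold had 1 UMI, and those just outside had 0. The share of cells with a PAX7 UMI was 0.946% in replicate 1 (95% exact binomial interval 0.765% to 1.16%) and 0.896% in replicate 2 (0.713% to 1.11%), and these intervals cover counting error only. The PAX7 level was 0.00645 in replicate 1 and 0.00595 in replicate 2. At the median depth of PAX7 cells these levels amount to 0.0105 and 0.00979 UMIs per cell. A count of 0 in a matched cell of median depth allows a level of up to 1.85 in replicate 1 and 1.82 in replicate 2, if 3 counts are taken as the limit. Matched cells were therefore cells in which PAX7 was not caught, and at this depth they cannot be called cells without PAX7. Since PAX7 counts chose the cells, all PAX7 values are given as a description and without a test.

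The depth matching left little difference in total counts. The median was 16262.5 UMIs in PAX7 cells and 16259.5 in matched cells of replicate 1, and 16450 and 16452.5 in replicate 2. PAX7 cells had medians of 3837 and 3911.5 detected genes, and matched cells had 3777.5 and 3834. The shallowest PAX7 cells had 7449 UMIs in replicate 1 and 2303 in replicate 2, and none of the 987 and 911 cells under 2000 UMIs was a PAX7 cell. Among the 10 depth bins, the PAX7 level was 0.0105 in bin 2 and 0.00384 in the deepest, which held 9 and 23 PAX7 cells. It did not fall steadily between them, since bin 8 had 33 PAX7 cells and a level of 0.00903. Doublets are barcodes that hold more than 1 cell. The automatic threshold of the doublet score called only 0 and 1 cells. The 7.60% and 7.01% of cells with the highest scores in replicates 1 and 2 were therefore treated as doublets, a share set by choice. They made up 6.38% of PAX7 cells in replicate 1 and 14.6% in replicate 2, against 8.99% and 10.1% of matched cells. Of 27 barcodes found in both libraries, 2 belonged to PAX7 cells of replicate 2.

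PAX7 cells were spread over most of the 15 clusters into which the authors divided the culture. Among the 10 clusters with a median of at least 10000 UMIs per cell, clusters 4, 11 and 8 had PAX7 levels of 0.0112, 0.0103 and 0.0100, from 39, 16 and 17 PAX7 cells. Clusters 1, 2, 6 and 5 followed with levels of 0.00829, 0.00733, 0.00607 and 0.00602. The 95% Poisson intervals of neighbours in this order overlapped. In cluster 8 the level was 0.0068 in replicate 1 and 0.0135 in replicate 2, from only 6 and 11 PAX7 cells. Clusters 3 and 12, where MYOG is highest, together had a level of 0.00126 (0.000461 to 0.00273). There were 6 PAX7 cells in cluster 3 and 0 among the 627 cells of cluster 12. For cluster 12 the 95% exact binomial interval of the share of cells with a PAX7 UMI reaches 0.587%. Cluster 9, which has the highest PDGFRA level and is described by the authors as fibro-adipogenic progenitors, had 3 PAX7 cells and a level of 0.00114 (0.000235 to 0.00332).

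**Figure D1:**
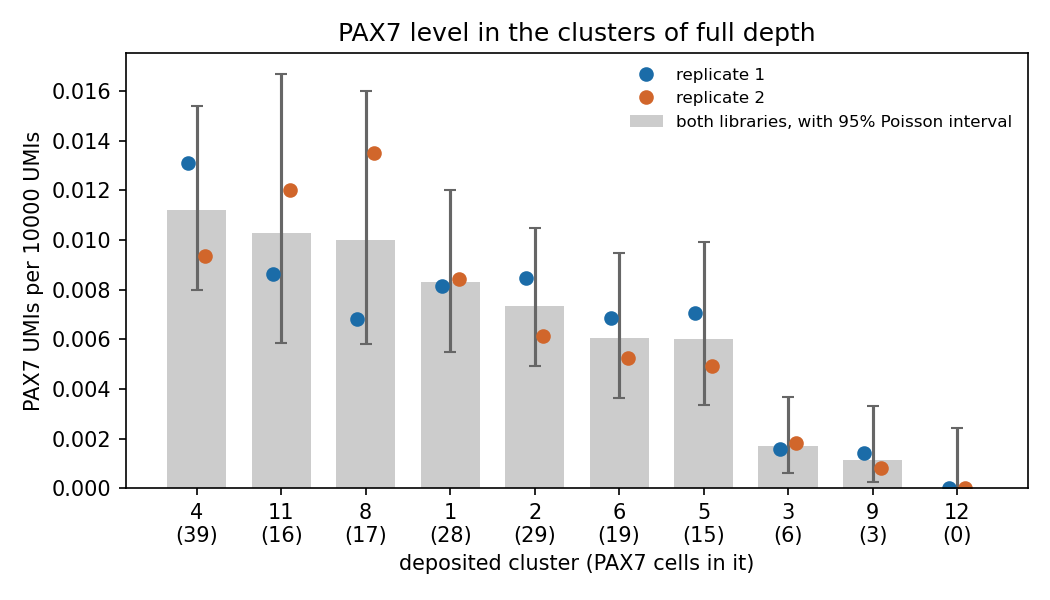
PAX7 UMIs per 10000 UMIs (vertical axis) in the 10 clusters with a median of at least 10000 UMIs per cell, with the number of PAX7 cells under each cluster number. Bars are both libraries together with 95% Poisson intervals (for the 0 of cluster 12, up to the limit of 3 counts), points are the libraries, and clusters 3, 9 and 12 lie at or under 0.0017.

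Cluster 9 serves as a population that should lack PAX7, and gives the background of PAX7 detection. Its share of cells with a PAX7 UMI was 0.278% at a median of 23011 UMIs, and that of cluster 3 was 0.295% at a median of 16482. The exact binomial intervals of both, 0.0573% to 0.81% and 0.108% to 0.641%, overlap. The 3 and 6 cells are too few to place cluster 3 above cluster 9 or level with it. In clusters 2 and 4, where genes of mitosis are highest, the share was 1.75% at a median of 18251 UMIs. With each cell thinned to 10000 UMIs the expected share was 0.975% in clusters 2 and 4 over 3733 cells, 0.768% in clusters 6 and 11 over 2396 cells, 0.794% in clusters 1, 5 and 8 over 4725 cells, and 0.142% in clusters 3 and 12 over 2578 cells. For cluster 3 alone it was 0.185% over 1981 cells and for cluster 9 0.0734% over 1067 cells, which is less than 1 cell, and without doublets cluster 9 held 1 PAX7 cell. Clusters 7, 10, 13, 14 and 15, with a joint median of 1928 UMIs, held 4 PAX7 cells, of which 1 was in cluster 13, whose level of 0.0101 had an interval from 0.000254 to 0.056.

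Set against matched cells, PAX7 cells were seldom among the differentiating cells. In clusters 3 and 12 lay 3.19% of PAX7 cells (95% exact binomial interval 0.663% to 9.04%) and 17.0% of matched cells (15.3% to 18.7%) of replicate 1. In replicate 2 the same shares were 3.66% (0.761% to 10.3%) and 16.2% (14.4% to 18.0%). Clusters 2 and 4 held 42.6% of PAX7 cells and 24.5% of matched cells in replicate 1, and 34.1% and 24.3% in replicate 2, where the intervals, 24.0% to 45.4% and 22.3% to 26.5%, overlapped. Cluster 9 held 2.13% and 1.22% of PAX7 cells, against 7.55% and 6.46% of matched cells, and with 2 and 1 PAX7 cells there the intervals overlapped in both libraries. In clusters 1, 5 and 8 the intervals overlapped in both libraries, with 30.9% and 37.8% of PAX7 cells and 32.6% and 32.8% of matched cells. With 2 libraries a side, no exact permutation test of such shares can reach 0.05, so none is given.

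**Figure D2:**
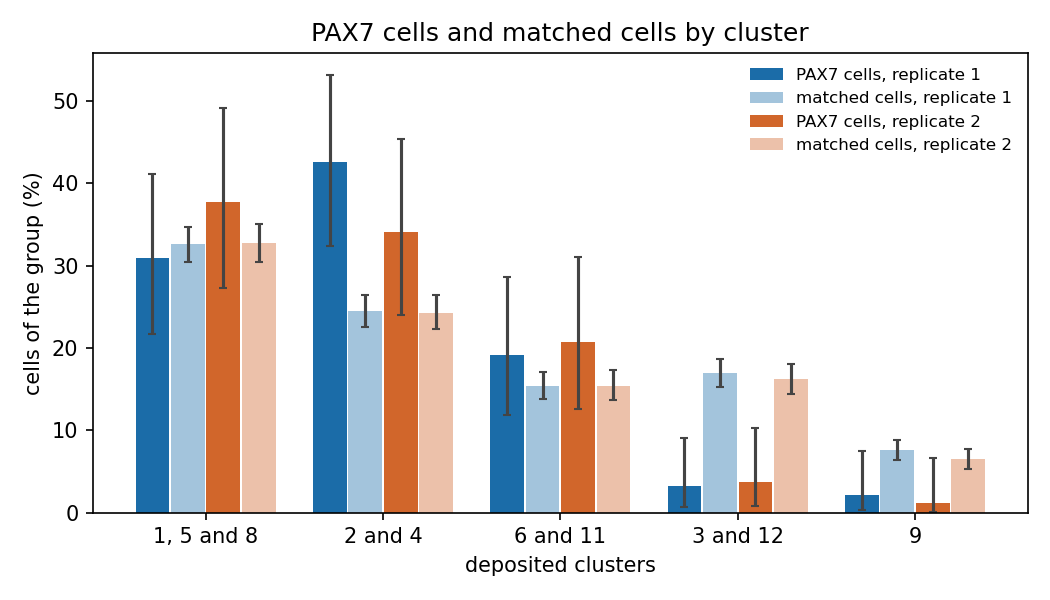
Share of PAX7 cells and of matched cells (vertical axis, percent) in 5 sets of clusters, per library, with 95% exact binomial intervals. In clusters 3 and 12 the PAX7 bars are at 3.19% and 3.66% and the matched bars at 17.0% and 16.2%, and in clusters 2 and 4 the PAX7 bars are the taller.

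UMIs were then summed over PAX7 cells and over matched cells within each library, and the quasi-likelihood test of edgeR was run on the 2 sums of each kind over 11516 genes, PAX7 left out, with p-values adjusted by the method of Benjamini and Hochberg. At an adjusted p under 0.05, 51 genes (0.443%) were higher and 80 genes (0.695%) were lower in PAX7 cells, together 131 (1.14%). The libraries pair the sums, and with the library as a block 329 genes (2.86%) were higher and 470 (4.08%) lower, together 799 (6.94%), the 131 among them. That fit has 1 residual degree of freedom per gene and a common dispersion of 0.000741, against 0.00518 without the block, so its p-values rest mostly on counting error and say little of the spread between preparations. The median log2 fold change of all tested genes was 0.00. A negative log2 fold change stands for a lower level in PAX7 cells.

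MYOG (ENSBTAG00000006030), the regulator that starts terminal differentiation, had levels of 0.721 and 0.851 in PAX7 cells of replicates 1 and 2 and of 2.18 and 2.17 in matched cells. The groups did not overlap, and MYOG was 2.83-fold lower in PAX7 cells (log2 fold change −1.50, standard error 0.085, edgeR adjusted p = 0.000418). Without doublets its log2 fold change was −2.16. It was 0.19 against cells of the same cluster and 0.11 with clusters 3, 9 and 12 left out. MYOG passed in neither of these settings (edgeR adjusted p = 0.766 and 0.851). At least 1 MYOG UMI was found in 23.4% of PAX7 cells of replicate 1 (15.3% to 33.3%) and 25.6% of replicate 2 (16.6% to 36.4%), against 35.3% (33.1% to 37.5%) and 36.5% (34.1% to 38.8%) of matched cells. These intervals overlap in both libraries. The PAX7 cells with MYOG held a median of 1 MYOG UMI in either library, against medians of 3 and 2 in the matched cells with MYOG, but 1 PAX7 cell held 34 of the 120 MYOG UMIs of replicate 1 and 1 held 45 of the 126 of replicate 2. Free RNA in the droplets may give such UMIs as well, but its amount was not measured. The authors did not find cluster 9 enriched with MYOG. In the matched cells of cluster 9 the share was 28.9% (21.6% to 37.1%) at a median of 22572 UMIs in replicate 1. In replicate 2 it was 24.5% (16.7% to 33.8%) at 25505. Those cells were deeper than PAX7 cells, and the MYOG level of cluster 9, 0.265, was below that of PAX7 cells, so the shares alone are read neither as MYOG expression nor as its absence. Of the 22 and 21 PAX7 cells with MYOG, 1 and 2 were in clusters 3 and 12, where 269 of 663 and 221 of 598 matched cells with MYOG were found.

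Some genes of the contractile apparatus and its assembly were lower in PAX7 cells. Of 35 muscle structure genes, 32 were tested, 14 passed the test as lower in PAX7 cells (23 with the block), and 0 passed as higher with either fit. Over all tested genes 0.695% passed as lower (4.08% with the block). The median log2 fold change of the 32 was −1.51, and −1.26 with 3 genes that had 0 UMIs in PAX7 cells put at the limit of 3 counts. The median was −0.03 over 24 genes against cells of the same cluster, and −0.10 over 28 with clusters 3, 9 and 12 left out. In both of these settings edgeR called 0 genes. Summed over the list, the level was 43.4 in PAX7 cells and 76.2 in matched cells of replicate 1, and 44.5 and 78.6 in replicate 2. ACTA1, the actin of adult skeletal muscle, had the largest fold change of the named genes, with levels of 0.0961 and 0.0878 in PAX7 cells and 1.01 and 0.777 in matched cells (log2 fold change −3.30, standard error 0.25, edgeR adjusted p = 0.00169). Its log2 fold change was 0.02 against cells of the same cluster and −0.04 with clusters 3, 9 and 12 left out. MYH3, the embryonic myosin heavy chain, was 7.88-fold lower (log2 fold change −2.98), although its levels in PAX7 cells differed between the libraries, with 0.0721 and 0.209 against 1.07 and 1.05 in matched cells, and the log2 ratio was −3.89 in replicate 1 and −2.33 in replicate 2.

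MYLPF, a fast myosin light chain, had levels of 1.36 and 1.25 in PAX7 cells and 5.88 and 6.31 in matched cells. Its log2 fold change was −2.25, or −3.08 without doublets. It was only −0.41 against cells of the same cluster and −0.29 with clusters 3, 9 and 12 left out. MYLPF passed in neither of these settings (edgeR adjusted p = 0.681 and 0.583), but passed within cluster with the block (0.000622). The calcium-binding troponin subunits TNNC1 of slow muscle and TNNC2 of fast muscle had log2 fold changes of −2.09 and −1.46. ACTC1, the cardiac actin that is also made in developing muscle, had levels of 8.72 and 7.39 in PAX7 cells and 22.2 and 23.6 in matched cells, a log2 fold change of −1.53. MYMK, the membrane protein that drives fusion of myoblasts, had levels of 0.0540 and 0.0676 in PAX7 cells and 0.199 and 0.251 in matched cells (log2 fold change −1.92, edgeR adjusted p = 0.0246). Its log2 fold change was 0.49 against cells of the same cluster and 0.75 with clusters 3, 9 and 12 left out. MYMK passed in neither of these settings (edgeR adjusted p = 0.831 and 0.571). DES, the muscle intermediate filament already present in proliferating myoblasts, was lower by less with matching on depth. Its levels were 2.71 and 3.01 against 4.63 and 4.60 (log2 fold change −0.72, edgeR adjusted p = 0.00256). The share of cells with a DES UMI was 80.9% and 76.8% in PAX7 cells and 79.3% and 80.3% in matched cells, and the intervals overlapped. In the matched cells of cluster 9 it was 62.7% and 58.5%.

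CDKN1C, an inhibitor of cyclin-dependent kinases, is known for cell cycle exit, and it was also lower in PAX7 cells, with levels of 3.63 and 3.35 against 6.97 and 7.59 (log2 fold change −1.09, edgeR adjusted p = 0.000567). The remaining genes in the 10 largest falls were FNDC5, the precursor of the myokine irisin, with a log2 fold change of −1.22, and PDLIM3, a protein of the muscle Z-disc, with −1.25.

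Among the other myogenic regulators, the differences were small or did not pass the test. Of 28 genes of this list, 26 were tested, of which 3 were lower (MYOG, TCF12 and ID1) and 0 higher, with a median log2 fold change of −0.06. Over all tested genes 0.695% were lower and 0.443% higher. With the block MYOD1 and MEF2D were also lower, and MYF5, MEOX1 and ID3 were higher. TCF12, an E protein that pairs with MYOD1 and MYOG on DNA, had levels of 1.01 and 0.946 in PAX7 cells and 1.35 and 1.34 in matched cells (log2 fold change −0.49, edgeR adjusted p = 0.0278). ID1, which binds E proteins and keeps them from DNA, had levels of 8.71 and 8.68 against 10.5 and 10.6 (log2 fold change −0.31, edgeR adjusted p = 0.0288). Neither gene had overlapping groups.

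MYF5 (ENSBTAG00000026972), the early commitment factor, had levels of 1.12 and 1.22 in PAX7 cells and 0.944 and 0.893 in matched cells. Its log2 fold change of 0.32 did not pass the test (95% interval 0.13 to 0.51, edgeR adjusted p = 0.114), but passed with the library as a block (0.0101), the only one of 13 other settings in which it did. MYOD1 (ENSBTAG00000002216), the determination factor of the lineage, had levels of 3.73 and 3.05 against 4.0 and 3.97, a log2 fold change of −0.26 (95% interval −0.46 to −0.06). It did not pass the test either (edgeR adjusted p = 0.202), and passed in 3 of 13 other settings, over which its adjusted p ran from 4.3e-05 with the block to 1.00. PAX3, the paralogue of PAX7, was found in 1 PAX7 cell of replicate 1 and 2 of replicate 2, or 1.06% and 2.44%, against 1.54% and 2.01% of matched cells and 2 of 142 and 0 of 106 matched cells of cluster 9. Its log2 fold change of −0.22 had a 95% interval from −2.0 to 1.57, so that neither a rise nor a fall of that size was detectable at this depth.

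Cells were also sorted by the combination of these factors. The state with MYF5 and MYOD1 but no MYOG made up 50.0% of PAX7 cells in replicate 1 (39.5% to 60.5%) and 42.7% in replicate 2 (31.8% to 54.1%), and 33.0% (30.9% to 35.2%) and 32.2% (29.9% to 34.5%) of matched cells. MYOD1 without MYF5 and MYOG was found in 18.1% and 18.3% of PAX7 cells and in 17.4% and 16.6% of matched cells. None of the 3 factors was found in 3.19% and 3.66% of PAX7 cells, 3 cells in each library, against 6.81% and 7.20% of matched cells, with overlapping intervals. At least 1 MYF5 UMI was present in 72.3% and 68.3% of PAX7 cells and in 60.9% and 60.5% of matched cells, with intervals that overlapped in both libraries. These groupings count UMIs and may include free RNA, the amount of which was not measured. In the matched cells of cluster 9, MYF5 was counted in 29 of 142 and 17 of 106 cells, MYOD1 in 46.5% and 36.8%, MYF5 and MYOD1 without MYOG in 8.45% and 9.43%, and none of the 3 factors in 38.7% and 43.4%. MYOD1 without MYF5 and MYOG was found there in 21.8% and 17.9%, a share that also depends on how many cells lack MYF5 and MYOG. The MYOD1 level of cluster 9 was 0.579.

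**Figure D3:**
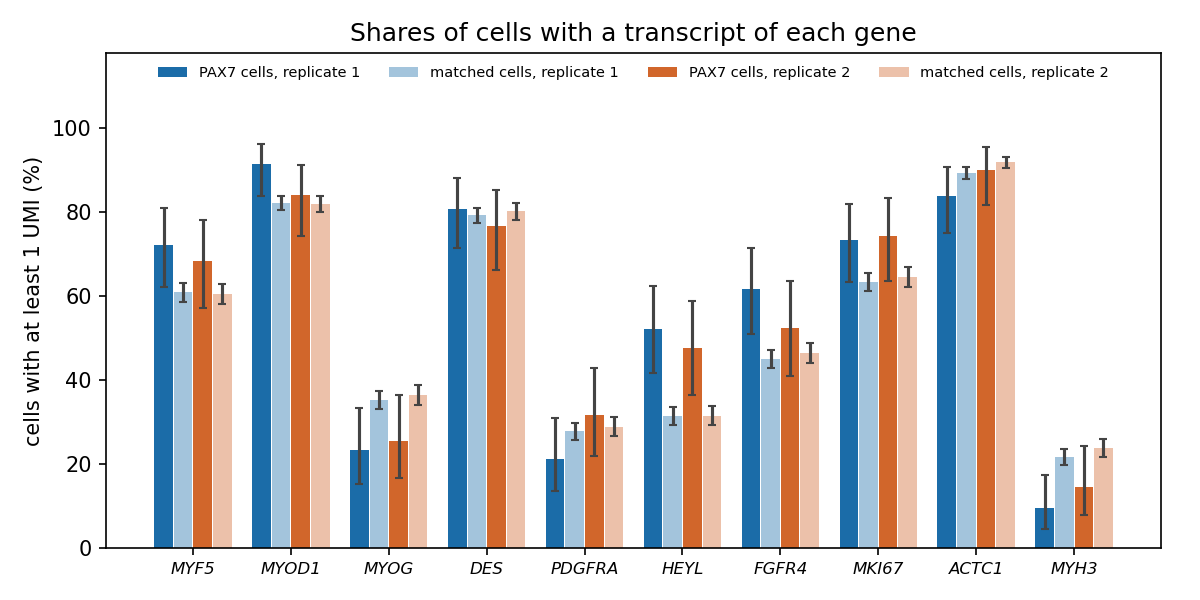
Share of cells with at least 1 UMI of each gene (vertical axis, percent) in PAX7 cells and matched cells of each library, with 95% exact binomial intervals. HEYL is found in 52.1% and 47.6% of PAX7 cells and in 31.4% and 31.5% of matched cells, and the intervals of MYOG, MKI67, DES and PDGFRA in PAX7 cells and matched cells overlap.

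The Notch pathway holds satellite cells in an undifferentiated state in mice, through receptors on their surface and transcriptional repressors of the HES and HEY families. HEYL (ENSBTAG00000008688), a repressor of the latter family, had the largest rise of the named genes that passed the test. Its levels were 0.757 and 0.547 in PAX7 cells and 0.293 and 0.289 in matched cells, which is 2.21-fold higher (log2 fold change 1.15, standard error 0.14, edgeR adjusted p = 0.0114). HEYL was found in 52.1% (41.6% to 62.5%) and 47.6% (36.4% to 58.9%) of PAX7 cells and in 31.4% (29.3% to 33.5%) and 31.5% (29.2% to 33.8%) of matched cells, and cells with HEYL had a median of 2 HEYL UMIs in PAX7 cells and 1 in matched cells. Of the matched cells of cluster 9, 17 of 142 and 5 of 106 had HEYL. HEYL passed in 9 of 13 other settings, with adjusted p up to 0.455. No other Notch gene passed, and over all tested genes 0.443% passed as higher. Of 15 Notch genes, 14 were tested, with a median log2 fold change of 0.15. This median was 0.03 against cells of the same cluster and −0.02 with clusters 3, 9 and 12 left out. With the block NOTCH3, a receptor, also passed (0.0255 with edgeR, log2 fold change 0.44). The log2 ratio of NOTCH3 was 0.22 in replicate 1 and 0.70 in replicate 2, and the other 12 settings did not call it.

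Of 29 satellite cell surface and signalling genes, 25 were tested, 1 was higher and 0 were lower, and the median log2 fold change was −0.02. Over all tested genes 0.443% were higher and 0.695% lower. The gene of this list that passed was FGFR4, a receptor of fibroblast growth factors made in satellite cells and myoblasts. Its levels were 0.745 and 0.757 in PAX7 cells and 0.533 and 0.522 in matched cells (log2 fold change 0.48, edgeR adjusted p = 0.0471). It passed in 8 of 13 other settings, and not with all cells weighted by depth bin, within cluster or with clusters 3, 9 and 12 left out. CDH15, the M-cadherin of satellite cells, was barely counted, with levels of 0.0120 and 0.0203 in PAX7 cells and 0.00815 and 0.0172 in matched cells, and its interval ran from −1.56 to 2.18. No UMI of CALCR or VCAM1, which mark quiescent satellite cells in mice, or of CHRDL2 and FOXO3 was counted in PAX7 cells. All 4 had UMIs in the matched cells and were too rare to be tested. PAX7 cells held 1665593 and 1480074 UMIs in all, against 33129949 and 29584647 in matched cells, so these zeros are not read as absence. NCAM1, a surface adhesion protein, was the most abundant gene of the list in PAX7 cells, with 4.69 and 4.47. Among 12 genes whose proteins bind PAX7 or modify chromatin with it, all 12 were tested, with a median log2 fold change of 0.08. Of these 0 passed with edgeR, with or without the block, or with DESeq2. By edgeR 1 had an unadjusted p under 0.05, as did 1741 of all 11516 tested genes.

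Some cell cycle genes passed the test as higher in PAX7 cells, and most did not. Over all 11516 tested genes 0.443% passed as higher and 0.695% as lower, or 2.86% and 4.08% with the block. A positive log2 fold change was found for 5830 of them. Of 54 genes of the G2/M list, all were tested, and 8 passed as higher and 0 as lower. With the block 28 passed as higher and 1 as lower, namely JPT1, with log2 ratios of −0.01 and −0.44 in replicates 1 and 2. In this list 53 had a positive log2 fold change, and the median was 0.36, but 0.05 against cells of the same cluster. The summed level was 97.5 in PAX7 cells and 70.9 in matched cells of replicate 1, and 84.5 and 69.3 in replicate 2. Of the 43 tested S phase genes 3 passed as higher (ATAD2, UHRF1 and RAD51AP1) and 0 as lower, 17 and 0 did so with the block, 40 were positive, and the median was 0.30, or 0.15 against cells of the same cluster. The summed S phase level was 33.9 against 26.8 in replicate 1 and 32.9 against 26.5 in replicate 2.

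MKI67, the proliferation marker Ki-67, had levels of 5.01 and 5.32 in PAX7 cells and 3.25 and 3.11 in matched cells (log2 fold change 0.67, standard error 0.059, edgeR adjusted p = 0.00255). It was counted in 73.4% (63.3% to 82.0%) and 74.4% (63.6% to 83.4%) of PAX7 cells and 63.4% (61.2% to 65.6%) and 64.7% (62.3% to 67.0%) of matched cells, and these intervals overlap. CENPF, a kinetochore protein, had levels of 10.4 and 9.24 against 6.60 and 6.38 (log2 fold change 0.57). TOP2A, the topoisomerase of dividing cells, differed more between libraries, with 5.06 and 3.42 in PAX7 cells and 2.77 and 2.35 in matched cells, and did not pass (log2 fold change 0.70, edgeR adjusted p = 0.0832). PCNA, the sliding clamp of DNA replication, had 2.70 and 3.05 against 2.22 and 2.26 (log2 fold change 0.33, edgeR adjusted p = 0.0683). The log2 ratio of TOP2A was 0.87 in replicate 1 and 0.54 in replicate 2, and that of PCNA 0.29 and 0.43. Both passed with the block, and over 13 other settings TOP2A passed in 5 and PCNA in 4, with adjusted p up to 1.00.

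The other genes among the 10 largest rises were partly of the cell cycle. MELK, a mitotic kinase, CEP78, a centrosomal protein, and MXD3, a repressor of the MYC network found in S phase, had log2 fold changes of 0.69, 0.74 and 0.77. The linker histone genes HIST1H1C and HIST1H1E had 0.66 and 0.67, but HIST1H1E stands for 2 Ensembl genes, and reads of near-identical histone genes may be split between copies. SYNE2, a nuclear envelope protein that ties the nucleus to the cytoskeleton, had levels of 0.979 and 0.912 against 0.545 and 0.543 (log2 fold change 0.77, edgeR adjusted p = 0.00675). The extracellular matrix genes MATN2 and EMILIN2 had log2 fold changes of 0.80 and 0.77, and EMILIN2 had levels of 0.636 and 0.635 in PAX7 cells and 0.356 and 0.377 in matched cells.

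Markers of other cell types gave a mixed picture. PDGFRA, the receptor that marks fibro-adipogenic progenitors, had levels of 0.186 and 0.304 in PAX7 cells and 0.327 and 0.293 in matched cells, so that the groups overlapped (log2 fold change −0.39, edgeR adjusted p = 0.405). Of the 14 tested fibro-adipogenic markers 2 passed as higher, COL3A1 and THY1, and the median log2 fold change was 0.17. With the block 7 passed as higher and 1 as lower (PPARG, a regulator of fat cell formation). Over all tested genes 0.443% passed as higher, and with the block 2.86% as higher and 4.08% as lower. COL3A1, a fibrillar collagen, had levels of 42.3 and 44.3 against 33.9 and 33.4 (log2 fold change 0.34), and THY1, a surface glycoprotein, had 0.859 and 0.892 against 0.607 and 0.612 (log2 fold change 0.49). THY1 passed in 7 of 13 other settings, and not without doublets, with all cells weighted by depth bin, within cluster or with clusters 3, 9 and 12 left out. The summed level of this list was 151 and 160 in PAX7 cells against 132 and 133 in matched cells, COL1A2 was its most abundant gene with 50.8 and 55.5, and none of its members was at 0. The list as a whole did not mark cluster 9, where PDGFRA was highest, since its summed level was 90.9 there and 163, 178, 175 and 278 in clusters 1, 4, 5 and 8. Cluster 7, which the authors also describe as fibro-adipogenic, had a summed level of 624. Its PDGFRA level was 1.52, against 1.58 in cluster 9, at a median of only 1389 UMIs per cell. The part of this list in the other results was not tested.

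Endothelial markers had 1 and 4 UMIs in all PAX7 cells of replicates 1 and 2, immune markers had 3 and 7, and CDH5, PECAM1, VWF and PTPRC were at 0. Of 8 smooth muscle and pericyte genes, MYH11 and RGS5 were at 0, and ACTA2 made most of the summed level of 8.15 and 8.61 (7.48 and 7.54 in matched cells). Of the glial genes SOX10, FOXD3 and CDH19 were at 0, in matched cells as well, and S100B gave 66 and 53 UMIs in PAX7 cells. Of the 12 tested genes of these 4 lists 0 passed edgeR's test and 3 had an unadjusted p under 0.05, as did 1741 of all 11516 tested genes. ACTA2 was called higher with DESeq2 and with the block. CNN1, a calponin, was called lower with the block, with 5 matched cells per PAX7 cell, without doublets and without the filter on low counts. Immediate early genes, which rise during cell handling, had summed levels of 11.8 and 11.3 in PAX7 cells and 11.6 and 11.5 in matched cells. Ribosomal protein genes had 2390 and 2360 against 2400 and 2380. Of the 91 tested, 77 had a log2 fold change below zero, with a median of −0.04, while 5684 of all 11516 tested genes were below zero. By edgeR 0 ribosomal genes passed, and 4 had an unadjusted p under 0.05, as did 1741 of all 11516 tested genes. With the block 12 were called lower, as were 470 of all tested genes. With DESeq2 2 were called, as were 267 of all tested genes.

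**Figure D4:**
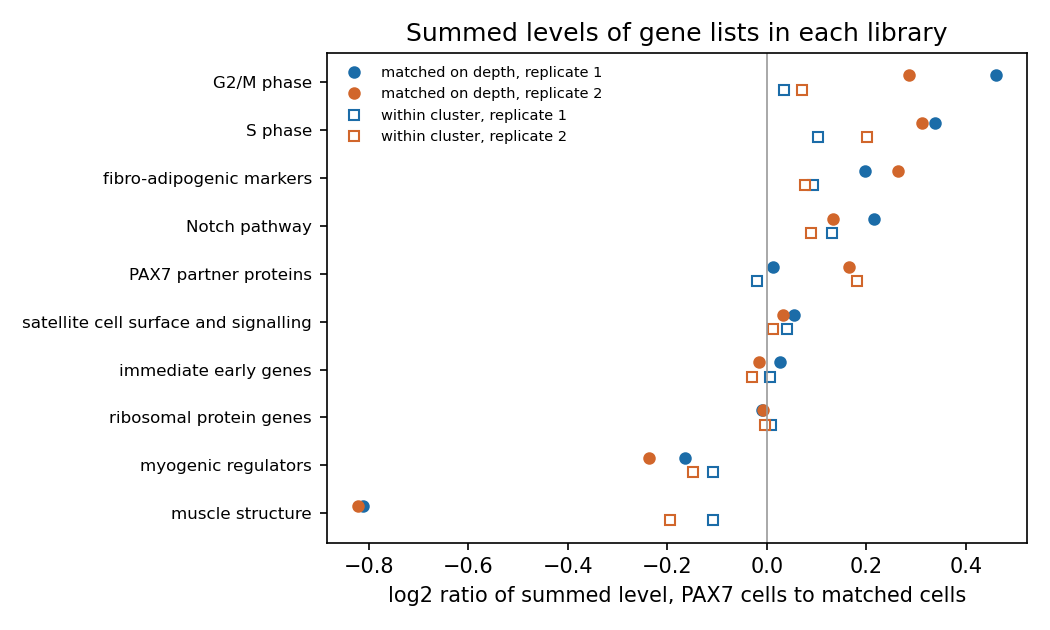
The log2 ratio of the summed level in PAX7 cells to that in matched cells (horizontal axis) for 10 gene lists in each library, with matching on depth (filled) and on depth within cluster (open). Muscle structure genes lie at −0.81 and −0.82 with matching on depth and at −0.11 and −0.20 within cluster.

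To see which differences were found among cells of the same cluster, each PAX7 cell was also matched with 10 cells of its own cluster and library nearest in total UMIs, which gave 1748 cells. Over 10667 genes, 0 were called by edgeR in either direction, with 375 higher and 382 lower at an unadjusted p under 0.05. With DESeq2 0 genes were called higher and 1 lower in PAX7 cells. With the library as a block in edgeR, 44 (0.412%) were higher and 47 (0.441%) lower. Of the 131 genes called with matching on depth, 130 had a value within cluster, 123 of these kept their direction and 34 were called with the block, but both comparisons share the PAX7 cells. The median size of their log2 fold change was 0.28 within cluster and 0.67 with matching on depth.

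The authors made the clusters by similarity of expression in these same cells, and MYOG levels differ widely between them, with 6.68 and 18.6 in clusters 3 and 12. Matching within cluster therefore holds the levels of such genes alike by construction, and is no test of them. The log2 fold change within cluster was 0.19 for MYOG (standard error 0.11), 0.49 for MYMK (0.37), 0.02 for ACTA1 (0.37), 0.02 for PDLIM3 (0.19) and −0.02 for DES (0.071), and the sign had turned for the former 4. ACTC1 and MYLPF remained below zero at −0.44 (0.084) and −0.41 (0.16), and CDKN1C at −0.35 (0.067). The summed level of muscle structure genes was 43.4 and 44.5 in PAX7 cells and 46.8 and 50.9 in cells of the same cluster, and the median of the 24 tested members was −0.03. The G2/M list had 97.5 and 84.5 against 95.2 and 80.5, and the S phase list 33.9 and 32.9 against 31.6 and 28.6.

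Within cluster HEYL had a log2 fold change of 0.85 (standard error 0.15, unadjusted p = 0.000335), and ID1 had −0.31 (0.054, unadjusted p = 0.000221), the same as with matching on depth. EMILIN2 had 0.60 (0.11) and SYNE2 had 0.54 (0.13). For HEYL and ID1 the adjusted p of edgeR was 0.433 within cluster without the block, and both passed with it. MYF5 and MYOD1 had 0.13 (0.088) and −0.21 (0.096), against 0.32 and −0.26 with matching on depth. With cells of clusters 3, 9 and 12 left out before matching, a choice made after the values were seen, edgeR again called 0 of 11397 genes, with 524 higher and 506 lower at an unadjusted p under 0.05, and HEYL had a log2 fold change of 0.92.

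**Figure D5:**
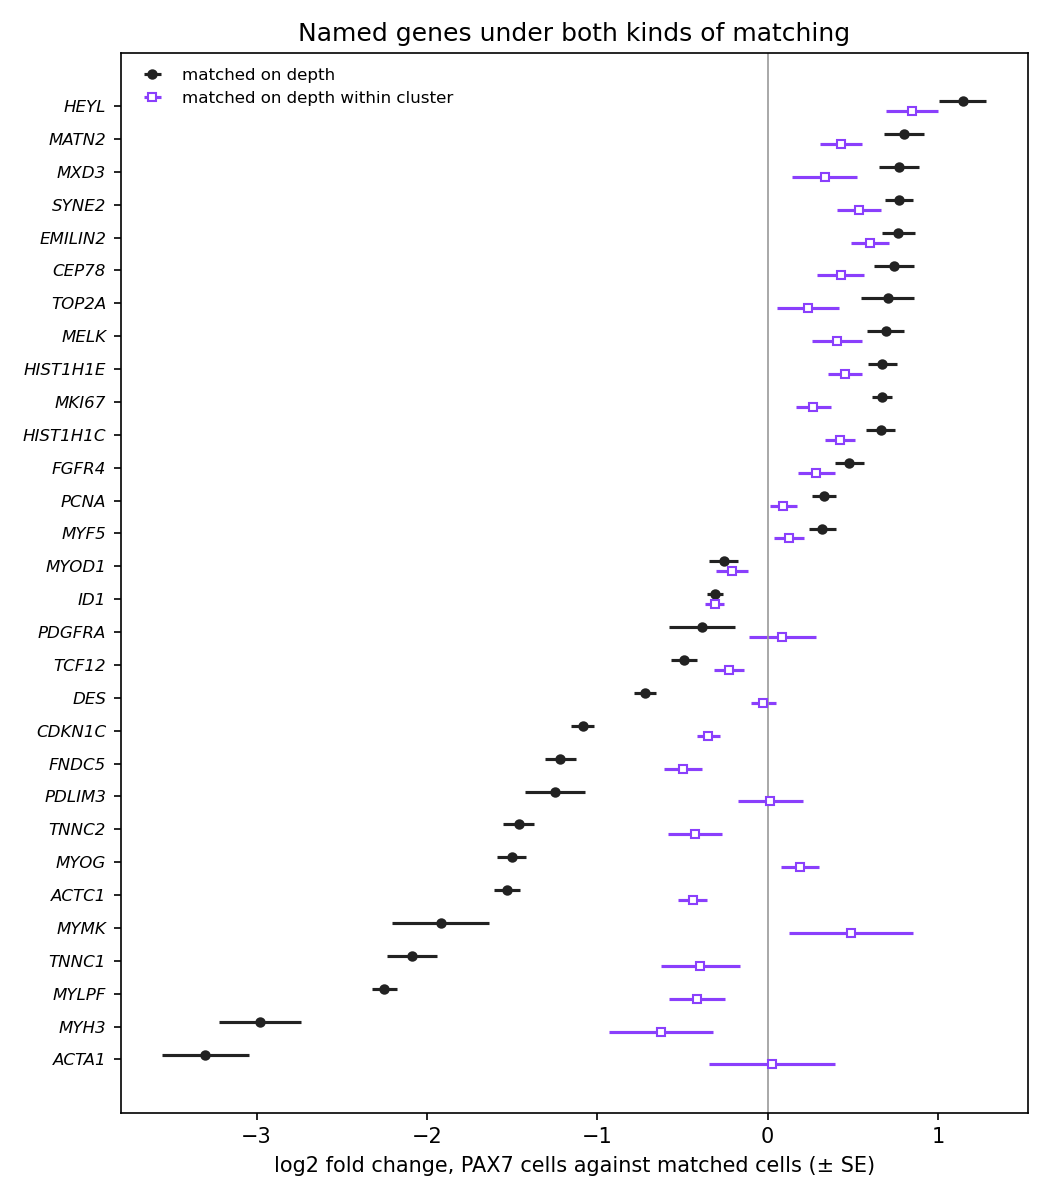
The log2 fold change of PAX7 cells against matched cells with its standard error (horizontal axis) for the named genes, with matching on depth (filled circles) and on depth within cluster (open squares). MYOG moves from −1.50 to 0.19 and ACTA1 from −3.30 to 0.02, whereas HEYL moves from 1.15 to 0.85 and ID1 stays at −0.31.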

How the data were processed

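The 2 single-cell libraries of the same cells of 1 calf were used. Per the submitters' processing notes and the study's methods, the authors used Cell Ranger 3.0.2 and ARS-UCD1.2. The deposited counts are whole UMI counts per gene and cell, made from uniquely mapped reads after both libraries had been brought to equal mapped reads per cell. The library of each cell is the number at the end of its deposited barcode. The authors also deposited, per gene and cluster, an average (a scaled score), a log2 fold change and a p-value. The averages convert to UMI sums within 0.000114 of whole numbers. From these sums the cluster of each of the 19096 cells was deduced, with 0 of 252240 sums differing. The authors' fold changes and p-values compare each cluster with the other cells and were not used.

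PAX7 cells, matched cells, gene lists and tests were chosen with earlier results of these data known. UMIs were summed per group and library and compared with edgeR 4.0.16 (TMM, filterByExpr, quasi-likelihood test, Benjamini-Hochberg adjustment, called under 0.05). Sums of a library share its preparation, and their log2 ratios between libraries had a correlation of 0.353 over 6196 genes, so the library number pairs them. The fit with this block and DESeq2 1.42.0 were alternatives. Genes named are 11 myogenic, fibro-adipogenic and cell cycle genes, the members that passed in the regulator, satellite cell, Notch and PAX7 partner lists, and the 10 largest changes in each direction among genes that passed, had the same sign in both libraries and reached a level of 0.5. MEF2D, ID3, NOTCH3, MEOX1, CENPF, ACTA2, CNN1, JPT1, PPARG, COL3A1, THY1, ATAD2, UHRF1 and RAD51AP1 were added after values were seen. Doublets were scored with Scrublet (scanpy 1.11.5). Its automatic threshold called 0 and 1 cells, so the cells with the highest scores were taken, 7.60% in replicate 1 and 7.01% in replicate 2, and they were kept in the main comparison, since the study's methods describe no removal. Mitochondrially encoded genes were not analysed here, and a few genes are not reported here.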

Additional observations from a re-analysis of the deposited data

How the results depend on the processing

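The number of calls moved by over 1.5 times with several settings. Against 51 genes higher and 80 lower in PAX7 cells, there were 196 and 352 with no filter on low counts, 329 and 470 when the library was a block, 83 and 127 with 5 matched cells per PAX7 cell, 13 and 36 with all other cells weighted by depth bin, and 119 and 148 with DESeq2, which left 2679 genes without an adjusted p. Within cluster there were 0 and 0 with edgeR, 0 and 1 with DESeq2, and 44 and 47 with the block. With clusters 3, 9 and 12 left out there were 0 and 0. No TMM, no doublets, no cells under 2000 UMIs and no shared barcodes kept both counts within 1.5 times. With 1 library left out there is no test.

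The log2 ratio of the summed level was 0.32 for S phase, 0.37 for G2/M and −0.82 for muscle structure genes. Within cluster these were 0.15, 0.0515 and −0.15, and with clusters 3, 9 and 12 left out 0.17, 0.15 and −0.14. Doublets left out gave 0.35 for S phase and −0.92 for muscle structure, which was −0.88 with 5 matched cells and −0.80 with weighting by depth bin. In single libraries the ratios ran from 0.31 to 0.34, from 0.29 to 0.46 and from −0.82 to −0.81.

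The PAX7 level of all cells was 0.00595 to 0.00645 in single libraries, and the share of cells 0.895% to 0.946%, or 1.02% without cells under 2000 UMIs. Single libraries gave 0.00764 to 0.0106 in clusters 2 and 4, 0.0012 to 0.00132 in clusters 3 and 12, and 0.000821 to 0.00141 in cluster 9. Clusters 3 and 12 had 0.00112 without doublets and 0.000845 with clusters by best profile, and cluster 9 had 0.00048 without doublets.

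Signs turned for 6 genes. With clusters 3, 9 and 12 left out, MYOG, MYMK and PDGFRA had 0.11, 0.75 and 0.14. Within cluster, the values with edgeR, DESeq2 and the block were 0.19, 0.20 and 0.19 for MYOG, 0.0245, 0.0223 and 0.0406 for ACTA1, 0.0162, 0.0285 and 0.0131 for PDLIM3, 0.49, 0.50 and 0.50 for MYMK, and 0.0857, 0.0984 and 0.0828 for PDGFRA. PAX3 had 0.15 without doublets. The cause of these changes was not tested. With all other cells weighted by depth bin 13 named genes no longer passed, namely HEYL, EMILIN2, PDLIM3, MATN2, TCF12, MXD3, ID1, CEP78, MELK, THY1, UHRF1, RAD51AP1 and FGFR4, and THY1 also did not without doublets. With the block 12 more of the 46 named genes passed, namely TOP2A, PCNA, MEOX1, MYF5, MEF2D, ID3, NOTCH3, MYOD1, ACTA2, CNN1, JPT1 and PPARG, and it changed no other call among them.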

Other observations

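Of the myogenic regulators, MEOX1, ID3 and MEF2D passed only with some settings. MEOX1, a homeobox factor of the somite, had levels of 0.126 and 0.270 in PAX7 cells of replicates 1 and 2 and of 0.0842 and 0.0801 in matched cells. Its log2 ratio was 0.58 in replicate 1 and 1.75 in replicate 2. The log2 fold change of 1.22 did not pass edgeR's quasi-likelihood test (adjusted p = 0.0979), and it passed in 3 of 13 other settings, over which the adjusted p ran from 7.2e-06 to 1.00. ID3, a partner of E proteins related to ID1, had levels of 3.38 and 2.88 against 2.61 and 2.56, a log2 fold change of 0.25, while that of ID1 was −0.31. MEF2D, a cofactor of MYOD1 and MYOG, had 0.0841 and 0.122 against 0.160 and 0.180, a log2 fold change of −0.76. These genes were chosen after their values were seen, and the difference between ID1 and ID3 was not tested.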
